A study of Drosophila sechellia and Drosophila simulans with 8 samples.

Results

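Drosophila senses chemicals through 3 large receptor families, and this account describes all their probe sets on arrays of female bodies. Members were taken by symbol: a probe set belongs where its only annotated gene symbol is Or, Gr or Ir followed by a number and letters. The rule found 165 genes with 185 probe sets among 18769 probe sets that are not array controls. They comprise 62 odorant receptor probe sets of 56 genes, 63 gustatory receptor probe sets of 56 genes and 60 ionotropic receptor probe sets of 53 genes. For 153 genes there was 1 probe set, and 12 genes had several.

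Odorant receptors work as complexes of a tuning subunit with the shared subunit Orco and are known mainly from olfactory neurons of the antenna and maxillary palp. Gustatory receptors detect sugars, bitter compounds, carbon dioxide and some pheromones, on the mouthparts but also on the legs, wings and ovipositor and in internal organs. Ionotropic receptors derive from glutamate receptors and combine tuning subunits with the co-receptors Ir8a, Ir25a, Ir76b and Ir93a to detect acids, amines, temperature and humidity. The roles named here come from D. melanogaster unless another species is given. D. sechellia is a specialist on noni fruit, whose octanoic and hexanoic acids repel or poison its generalist relative D. simulans.

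The study measured total RNA from bodies of adult females of both species on 8 Affymetrix arrays, 2 for each of 4 groups: D. sechellia no choice, D. sechellia choice, D. simulans no choice and D. simulans choice. The sample titles say bodies without saying whether heads and antennae were part of them. Choice and no choice refer to a treatment with a blend of octanoic and hexanoic acid, and no source gives the flies' strain or age, the exposure times or how many flies made up an RNA sample. Nor do the labels say what the no choice flies were exposed to. All groups shared the rearing food, growth temperature and constant humidity. The labels number the arrays within a group without saying that they come from separate flies, so the p-values here reflect how far these arrays vary, which may be technical. The annotation gives D. melanogaster symbols, so a difference between the species in signal can come from RNA or from mismatches to the probes, and these cannot be told apart. In RNA from bodies, fewer cells of a type and less RNA per cell cannot be told apart either.

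Array 1 of sechellia choice stood apart. The values are MAS5 signals, the summary brightness of a probe set on a linear scale, and the trimmed mean was 500.0 on each array. A background line was drawn on each array at the 90th percentile of its 27 control probe sets for Bacillus genes, which flies lack. This line lay between 36.9 and 64.1 on the other 7 arrays and at 378 on array 1 of sechellia choice, where the SD of log2 signals was 1.58 against 2.68 to 2.80 elsewhere. On that array 179 of 185 receptor probe sets (96.8%) had their highest signal of the 8 arrays, against 60.2% of all probe sets. Across tested probe sets its log2 signals correlated with the other arrays at r = 0.67 to 0.72, against 0.96 to 0.97 within the other groups and 0.91 to 0.92 between species. Results are therefore given with all 8 arrays and with 7, leaving it out. With 7 arrays, sechellia choice rests on array 2 alone, which the test assumes to vary like the other groups.

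**Figure D1:**
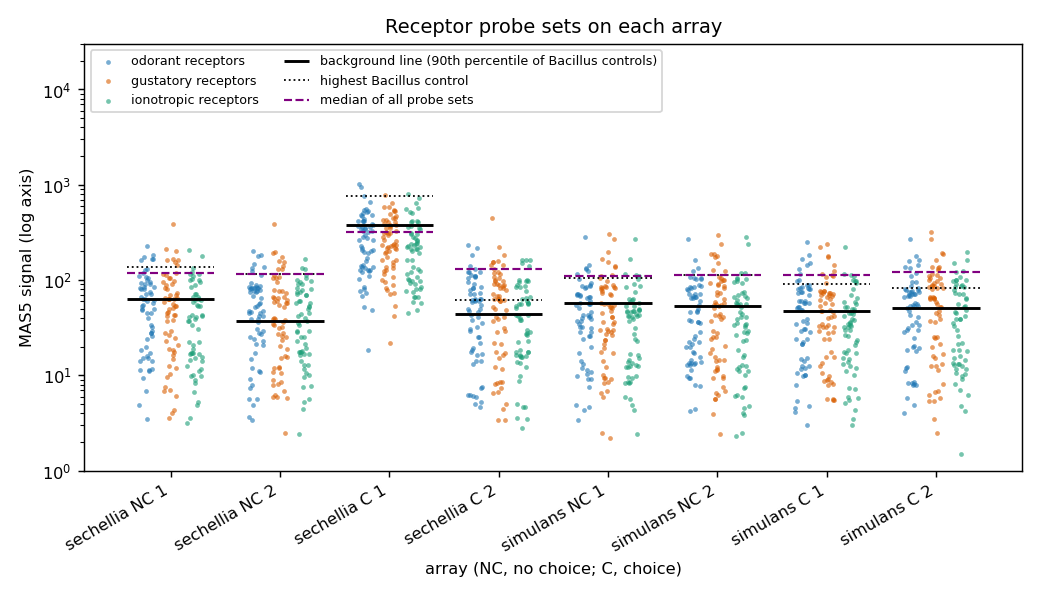
Signal of each of the 185 receptor probe sets on each array (points, log axis, coloured by family; NC, no choice; C, choice), with the background line (solid), the highest Bacillus control (dotted) and the median of all probe sets (dashed). The receptors' median signal was 37.7 to 51.9 on 7 arrays and 232 on array 1 of sechellia choice, where all 3 lines are also higher.

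Most receptors were dim in bodies. Over the 7 arrays, 34 of 185 receptor probe sets (18.4%) stood above the background line on every array, against 53.5% of all 18769 probe sets. Another 51 (27.6%), of 45 genes, were above it on no array, against 15.5% of all, and 100 were above it on some arrays. Above the line on every array of at least 1 group were 112 (60.5%), against 76.3% of all. The highest Bacillus control, a stricter bound, was exceeded on all 7 arrays by 8 receptor probe sets (4.32%) against 43.1% of all. The median over receptor probe sets of their geometric mean signal was 41.2, against 109.9 for all probe sets and 12.8 for the Bacillus controls. A signal over the Bacillus line does not establish that a receptor is transcribed, since the line measures what unrelated probes read, and its level on a probe set says nothing of RNA abundance relative to another.

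The count above the line differed between arrays, as did the line. It was lowest, at 63 of 185, on simulans no choice array 1, with its line at 57.1, and highest, at 102, on sechellia no choice array 2, with its line at 36.9. On array 1 of sechellia choice 46 members (24.9%) were above the line, against 44.6% of all probe sets. By group, 60 members were above the line on both sechellia no choice arrays, 98 on sechellia choice array 2, 51 on both simulans no choice arrays and 69 on both simulans choice arrays. A single array is an easier condition than a pair, so these counts are not a difference between groups.

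By family, among odorant receptors 13 of 62 probe sets (21.0%) were above the line on all 7 arrays, among gustatory receptors 15 of 63 (23.8%) and among ionotropic receptors 6 of 60 (10%). The odorant receptors were Or7a, Or23a, Or30a, Or33c, Or35a, Or43a, Or43b, Or59b, Or59c, Or67b, Or74a, Or85b and Or94a. The gustatory receptors were Gr8a, Gr22a, Gr22d, Gr23a, Gr28a, Gr32a, Gr43a, Gr57a, Gr59b, Gr59e, Gr61a, Gr64f, Gr77a, Gr85a and Gr89a. The ionotropic receptors were Ir8a, Ir25a, Ir40a, Ir64a, Ir68b and Ir100a. Each of the 34 belongs to a different gene, and the ratio of the highest to the lowest of the 7 signals ran from 1.15 to 4.86 with a median of 1.88. The 8 that also exceeded the highest control on all 7 arrays were Or43a, Or43b, Or94a, Gr22a, Gr43a, Gr59e, Gr64f and Gr85a.

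**Figure D2:**
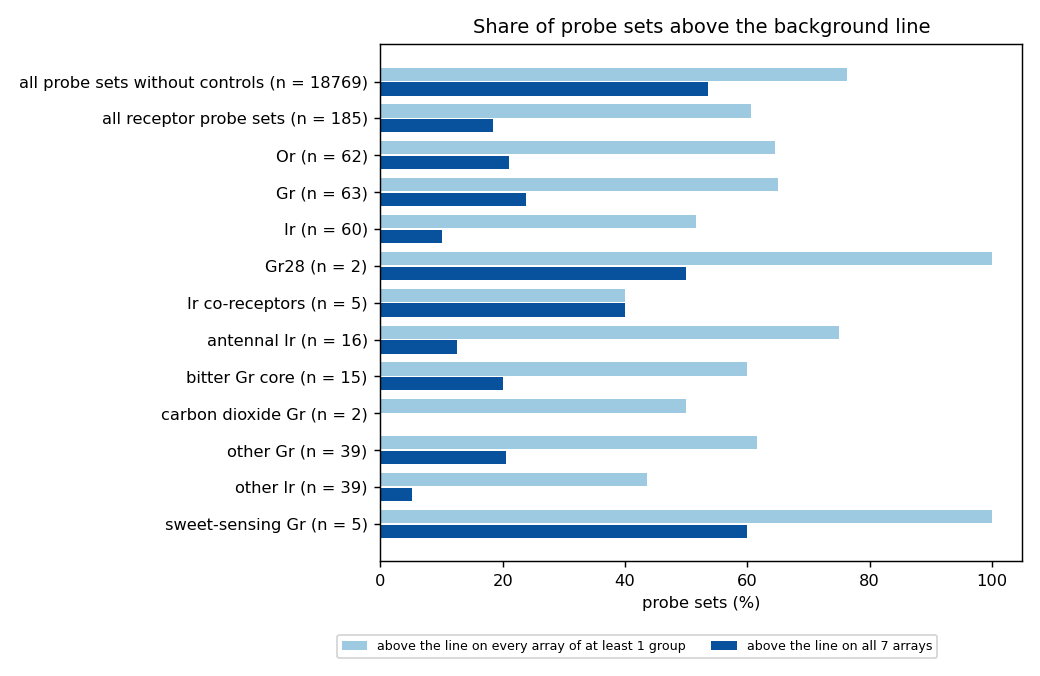
Percentage of probe sets above the background line on all 7 arrays (dark bars) and on every array of at least 1 group (light bars), for all probe sets, the receptors, the 3 families and the groups of receptors by role. All 5 sweet-sensing probe sets were above the line on every array of at least 1 group, where sechellia choice counts by 1 array. Of all receptor probe sets, 18.4% were above it on all 7 arrays.

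Among the roles, sweet-sensing receptors had the largest share above the line on all 7 arrays, over only 5 probe sets. That share of 60% was near the 53.5% of all probe sets. Of the 5 sweet-sensing probe sets, 3 were above it on all 7 arrays and each was above it in at least 1 group. By group, 3 were above it in sechellia no choice, 5 on sechellia choice array 2 alone, 3 in simulans no choice and 4 in simulans choice. Outside the membership rule, the probe set shared by Gr64d and Gr64e was above it on none of the 7 arrays. Of those shared by Gr64b and Gr64c, 1 was above it on all 7 and another on none. Gr43a, a fructose receptor that also acts as a nutrient sensor in the brain and is found in internal organs, read 154 and 139.8 on the sechellia no choice arrays, 119 on array 2 and 422 on array 1 of sechellia choice, 156 and 127 on simulans no choice, and 142 and 162 on simulans choice. Gr64f, a co-receptor that other sugar receptors need, read 165 and 159 on the sechellia no choice arrays, 146 on array 2 and 779 on array 1 of sechellia choice, 139 and 175 on simulans no choice, and 111 and 136 on simulans choice. Over the 7 arrays the signals of both overlapped between species and between treatments. Gr61a, which takes part in glucose sensing, was also above the line on all 7 and is described with the species differences. Gr64a was above the line on 5 of 7 arrays, and Gr5a, the trehalose receptor, on 2 of 7.

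Bitter and other gustatory receptors were more mixed. Of 15 probe sets in the bitter core list, 3 were above the line on all 7 arrays (Gr8a, Gr32a and Gr89a) and 5 on none. The bitter co-receptors Gr66a and Gr33a were above it on 4 and 1 of 7 arrays, and Gr32a, which also takes part in pheromone sensing, on 7. Gr28a, which larvae use to taste ribonucleosides, was above it on every one of the 7 arrays and Gr28b on 3. Of the subunits of the carbon dioxide receptor, Gr21a was above the line on 5 of 7 arrays and Gr63a on none, so the pair was not seen together. Gr68a, linked to male courtship, was above it on 6 of 7. Gr39a, a bitter receptor gene with alternative first exons, had 5 probe sets, of which 1 was above the line on 4 arrays and 4 on none.

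Gr85a, Gr59e, Or94a and Or74a are among the 12 members with the highest mean signal over 7 arrays. Gr85a, a gustatory receptor, read 164 and 175 on the sechellia no choice arrays, 184 on array 2 and 352 on array 1 of sechellia choice, 166 and 178 on simulans no choice, and 179.8 and 187 on simulans choice. It is among the 5 of the 34 members whose 7 signals span a ratio of at most 1.5. Gr59e read 204 and 129.9 on the sechellia no choice arrays, 221 on array 2 and 651 on array 1 of sechellia choice, 198 and 189 on simulans no choice, and 174 and 192 on simulans choice, with sechellia no choice array 2 as the lowest of the 7. Or94a, a larval odorant receptor, read 184 and 136 on the sechellia no choice arrays, 185 on array 2 and 535 on array 1 of sechellia choice, 116 and 123 on simulans no choice, and 152 and 159 on simulans choice. Its sechellia no choice array 2 fell within the simulans signals and the other sechellia arrays lay above them. Or74a, also known from larvae, read 163 and 134 on the sechellia no choice arrays, 139 on array 2 and 937 on array 1 of sechellia choice, 134 and 104 on simulans no choice, and 184 and 139 on simulans choice, and the 2 species overlapped. For these 4 probe sets array 1 of sechellia choice was the highest of the 8.

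Among the ionotropic co-receptors, Ir8a and Ir25a stood above the line and the others did not. Ir8a, the partner of the acid-sensing subunits, read 122 and 77.9 on the sechellia no choice arrays, 162 on array 2 and 649 on array 1 of sechellia choice, 63.9 and 56.3 on simulans no choice, and 114 and 163 on simulans choice. Its simulans no choice arrays lay just above their lines of 57.1 and 52.9 and below every other array. Ir25a, the most widely used co-receptor, read 72.2 and 113 on the sechellia no choice arrays, 86.8 on array 2 and 557 on array 1 of sechellia choice, 114 and 94 on simulans no choice, and 92.7 and 71 on simulans choice. Its species overlapped, and within D. simulans both no choice arrays lay above both choice arrays. Ir76b, the co-receptor for amines and several tastes, did not exceed 22.6 on the 7 arrays, and both probe sets of Ir93a were below the line on all of them.

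Receptors tied to acids or to the host shift of D. sechellia ranged from above the line on all 7 arrays to below it on all 7. Ir64a, an acid sensor, read 205 and 165 on the sechellia no choice arrays, 139.9 on array 2 and 719 on array 1 of sechellia choice, 166 and 242 on simulans no choice, and 49.8 and 153 on simulans choice. Simulans choice array 1 lay far below the other 6 and just above its line of 47.6. Ir75b, which detects hexanoic acid in D. sechellia, was above the line on 3 of 7 arrays, reading 40.9 and 14.3 on the sechellia no choice arrays, 53.5 on array 2 and 286 on array 1 of sechellia choice, 57.4 and 52.7 on simulans no choice, and 26.5 and 89.9 on simulans choice. Its sechellia and simulans signals overlapped. Ir75a, the neighbouring receptor for acetic and propionic acid, was above the line on no array and did not exceed 29.2. Or22a, whose neurons are expanded in D. sechellia and respond to fruit esters, was above it on 1 of 7 arrays, reading 24.3 and 15 on the sechellia no choice arrays, 17.5 on array 2 and 141 on array 1 of sechellia choice, 23.9 and 13.7 on simulans no choice, and 21.4 and 56.6 on simulans choice. Or22b and Ir56d were above it on none, Or42b, a receptor for fermentation esters, on 5, and Or85b, whose neurons respond to 2-heptanone, on all 7. Ir75c and Ir62a have no probe set under the rule.

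**Figure D3:**
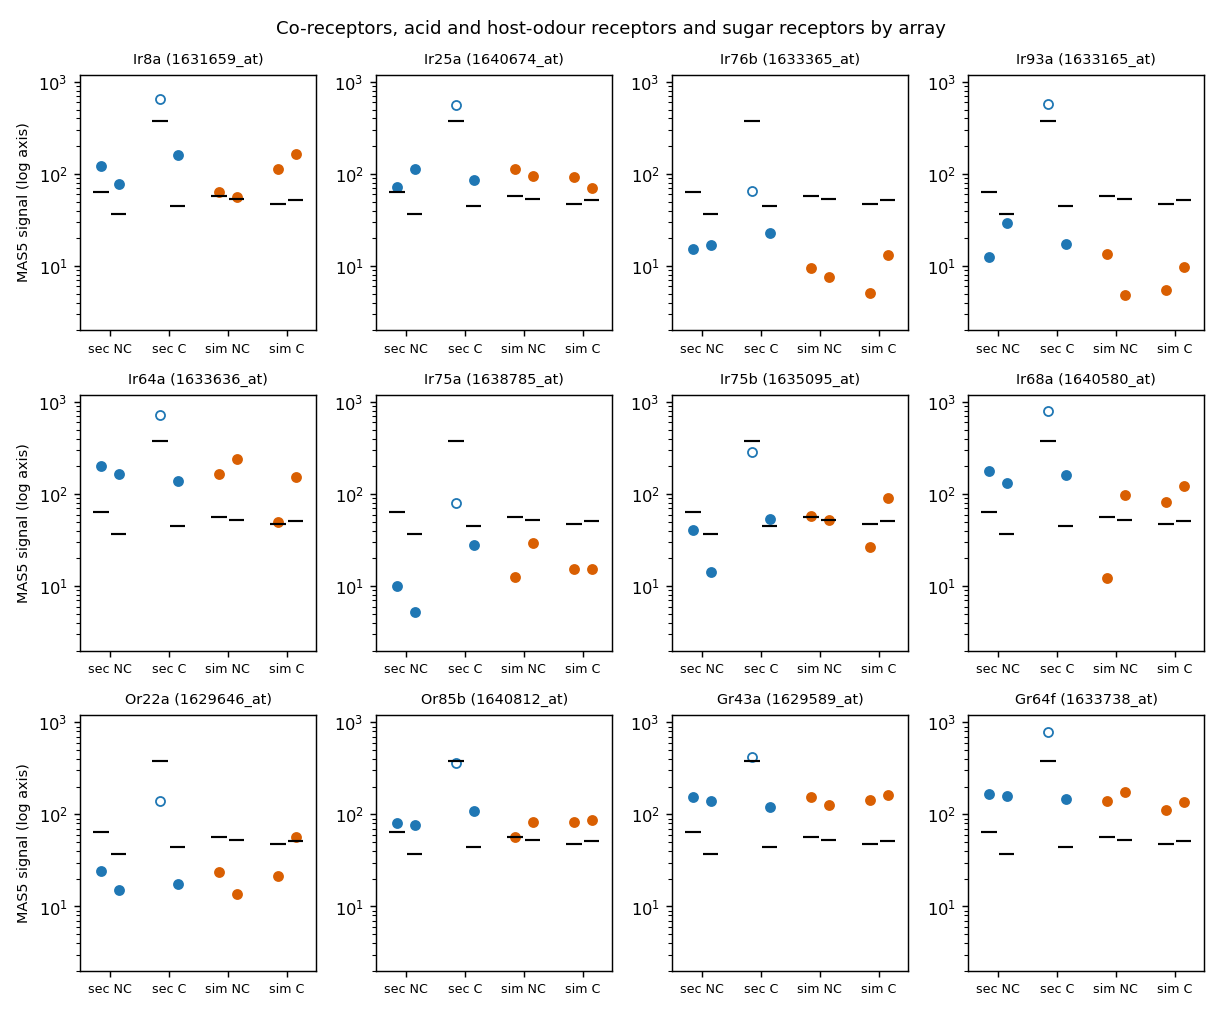
Signal on each array (log axis) of 12 co-receptors, acid, host-odour and sugar receptors, in D. sechellia (sec, blue) and D. simulans (sim, orange) under no choice (NC) and choice (C); the open point is array 1 of sechellia choice and each short bar is the background line of the array at that place. Ir8a, Ir25a, Ir64a, Or85b, Gr43a and Gr64f lie above the line on all 7 arrays, and Ir76b, Ir93a and Ir75a on none of them.

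Species and treatment were compared with limma's moderated test on log2 signals, fitted to 13138 probe sets after the dimmest 30% were left out, with Benjamini-Hochberg adjustment over all of them and a threshold of 0.05. This filter kept 91 receptor probe sets of 89 genes (32 odorant, 35 gustatory and 24 ionotropic) and left out 94. All 34 members above the line on all 7 arrays were kept and none of the 51 above it on no array. With all 8 arrays, limma called no receptor in any of the 7 contrasts, while it called 9.87% of all tested probe sets in the species difference averaged over treatments, 4.22% in that in no choice and 4.14% in that in choice. At an unadjusted p below the threshold in the averaged difference were 8 receptors (8.79%), all higher in D. sechellia, against 24.6% of all tested probe sets. The same count was 0 in no choice, against 15.3% of all, and 13 (14.3%) in choice, against 23.5% of all. The sechellia side of the averaged and choice counts includes array 1 of sechellia choice, where 179 of 185 receptor probe sets read highest. The median SE of the averaged species difference was 0.57 for receptors and 0.29 for all tested probe sets, and 0.38 and 0.15 with 7 arrays.

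With 7 arrays, 3 receptors differed between the species averaged over treatments, where 32.5% of all tested probe sets were called (16.9% higher and 15.6% lower). Gr22a was higher in D. sechellia, and Gr61a and Ir76a were lower. The share of 3 of 91, or 3.30%, was below the background. At an unadjusted p below the threshold were 11.0% of the receptors and 42.0% of all tested probe sets. The median log2 difference was 0.19 over the receptors and 0.07 over all, and with 8 arrays 0.71 and 0.14.

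Ir76a, an antennal receptor for phenylethylamine, read 134 and 134 on the sechellia no choice arrays, 42.8 on array 2 and 341 on array 1 of sechellia choice, 272 and 283 on simulans no choice, and 220 and 198 on simulans choice. Every sechellia array of the 7 lay below every simulans array, and array 2 of sechellia choice lay below its line of 44.6. The difference was -1.67 ± 0.18 on the log2 scale (adjusted p = 0.000155, limma) with 7 arrays, and -0.92 ± 0.58 (adjusted p = 0.366) with all 8. It was called in no choice at -1.05 ± 0.22 (adjusted p = 0.00847, limma), where 28.2% of all probe sets were called (14.5% higher and 13.7% lower), and in choice at -2.28 ± 0.27 (adjusted p = 0.000759, limma), where 19.4% were (9.78% lower). Since its sechellia choice signal was below the line, the choice difference is a bound of at least 4.67-fold lower. Its probe set is of a type whose probes match several transcripts.

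Ir76a is known from the antenna, and of 4 antennal marker probe sets 1, Obp83b, was called different between the species with 7 arrays. Obp83b, an odorant-binding protein, read 18.5 and 25.4 on the sechellia no choice arrays, 27.3 on array 2 and 132 on array 1 of sechellia choice, 113 and 80.3 on simulans no choice, and 150.3 and 119 on simulans choice. Its 3 sechellia signals lay below the line and the 4 simulans signals above it, and it was called lower in D. sechellia with 7 arrays averaged over treatments (adjusted p = 0.00264, limma), in no choice (adjusted p = 0.0124) and in choice (adjusted p = 0.0304). With 8 arrays it was not called in the averaged difference (adjusted p = 0.147, limma). Over the 4 antennal marker probe sets the summed signal was 171 to 241 in sechellia no choice, 285 on array 2 of sechellia choice, 285 to 319 in simulans no choice and 307 to 376 in simulans choice. The other antennal markers did not share 1 direction. Averaged over treatments with 7 arrays, a10 lay higher in D. sechellia, at 0.62 ± 0.35, and Orco lower, at -0.72 ± 0.32. Neither was called, and lush was below the line on all 7 arrays. The part of antennal RNA in the Ir76a result was not tested.

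Gr61a read 98 and 157 on the sechellia no choice arrays, 154 on array 2 and 531 on array 1 of sechellia choice, 267 and 239 on simulans no choice, and 242 and 272 on simulans choice. The 3 sechellia arrays lay below all 4 simulans arrays, and array 1 of sechellia choice lay above all of them. The averaged difference was -0.88 ± 0.21 (adjusted p = 0.011, limma) with 7 arrays and -0.43 ± 0.40 (adjusted p = 0.526) with 8. In no choice alone it was -1.03 ± 0.26 (adjusted p = 0.0184, limma), a call lost without the intensity trend (adjusted p = 0.0605).

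Gr22a, a gustatory receptor without an assigned ligand here, read 385 and 392 on the sechellia no choice arrays, 449.9 on array 2 and 580 on array 1 of sechellia choice, 305 and 298 on simulans no choice, and 223 and 319.5 on simulans choice. All sechellia arrays lay above all simulans arrays. Array 1 of sechellia choice adds little to this, as 179 of 185 receptor probe sets had their highest signal there. The averaged difference was 0.56 ± 0.15 (adjusted p = 0.0192, limma) with 7 arrays and 0.65 ± 0.19 (adjusted p = 0.0759) with 8. The call was lost without the intensity trend of the variance (adjusted p = 0.064, limma).

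**Figure D4:**
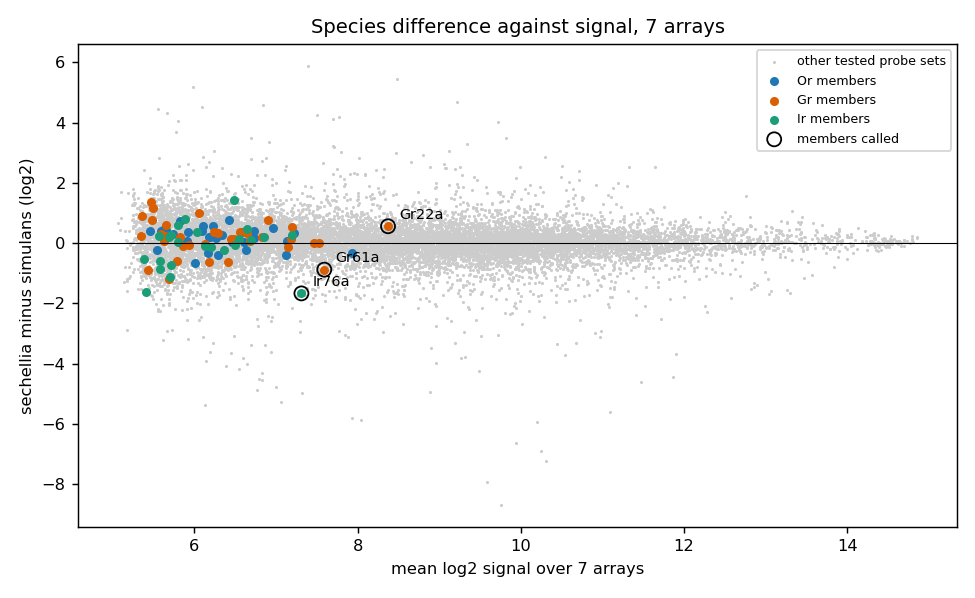
Species difference (sechellia minus simulans, log2, averaged over treatments) against mean log2 signal over 7 arrays for all 13138 tested probe sets (grey) and the 91 tested receptors (coloured by family); open circles mark the receptors called. Receptors lie at the dim end, and the 3 called are Gr22a above 0 and Gr61a and Ir76a below it.

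In no choice, 2 odorant receptors were also called with 7 arrays, both higher in D. sechellia, making 4 receptors in all (2 higher and 2 lower). Or35a, a broadly tuned receptor of coeloconic sensilla, read 176 and 181 on the sechellia no choice arrays, 122 on array 2 and 558 on array 1 of sechellia choice, 71.2 and 85.6 on simulans no choice, and 167 and 119 on simulans choice. Both sechellia no choice arrays lay above both simulans no choice arrays, and the simulans choice arrays lay between them. Its difference in no choice was 1.19 ± 0.29 (adjusted p = 0.0163, limma), and the other 2 probe sets of Or35a were above the line on no array. Or85c, a neighbour of Or85b, read 83.9 and 88.3 on the sechellia no choice arrays, 32 on array 2 and 359.9 on array 1 of sechellia choice, 28.5 and 13.4 on simulans no choice, and 69.4 and 96.5 on simulans choice. Here the simulans no choice arrays were below the line, so the called difference of 2.14 ± 0.60 (adjusted p = 0.0282, limma) is a bound of at least 1.57-fold. The call was lost when signals were raised to the background line (adjusted p = 0.156, limma).

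In choice, 3 receptors were called with 7 arrays, each lower in D. sechellia: Ir76a, Ir21a and Or43a. The sechellia side of each is array 2 alone, and array 1 of the group read higher than array 2 in all 3. Array 1 was the highest of the 8 for 179 of 185 receptor probe sets. Against its own line of 378, Ir76a and Ir21a were below it and Or43a above it. Ir21a, a cool-sensing receptor, has 2 probe sets, and the called one read 101 and 82.5 on the sechellia no choice arrays, 8.7 on array 2 and 211 on array 1 of sechellia choice, 47.8 and 66 on simulans no choice, and 45.7 and 98.9 on simulans choice. Only the sechellia choice array 2 signal stood far below the rest, and of the simulans choice arrays 1 was above its line. The difference was -2.95 ± 0.71 (adjusted p = 0.021, limma), a bound of at least 1.51-fold. It was lost when signals were raised to the background line (adjusted p = 0.407) or without simulans choice array 2 (adjusted p = 0.0863). The other probe set of Ir21a read 22.6 and 75.7 on the sechellia no choice arrays, 84.8 on array 2 and 238 on array 1 of sechellia choice, 74.4 and 95.6 on simulans no choice, and 59.5 and 16.1 on simulans choice, and its signals did not follow the same pattern, with the lowest values in 1 array of each species.

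Or43a, an antennal receptor for cyclohexanol and benzaldehyde, read 166 and 183 on the sechellia no choice arrays, 70.9 on array 2 and 501.3 on array 1 of sechellia choice, 125 and 162 on simulans no choice, and 144 and 164 on simulans choice. Array 2 of sechellia choice was the lowest of the 8 and the other sechellia arrays lay above the simulans range. Its difference in choice was -1.11 ± 0.32 (adjusted p = 0.0442, limma), or 2.16-fold lower. This call was lost in each of the 6 fits that left out a further array (adjusted p = 0.0521 to 0.135, limma) and with no filter (adjusted p = 0.0719). With all 8 arrays the difference was 0.30, of opposite sign (adjusted p = 0.816).

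The same check for the other calls gave a mixed record. The averaged species differences of Gr22a, Gr61a and Ir76a were kept in all 6 fits without a further array. In no choice, the calls of Or35a, Or85c and Gr61a were each lost in 3 of 6 and that of Ir76a in 1 (without simulans no choice array 2, adjusted p = 0.0578, limma). For Or35a the arrays were sechellia no choice 1 and 2 and simulans no choice 1. For Or85c they were sechellia no choice 1 and 2 and simulans no choice 2. For Gr61a they were sechellia no choice 1 and simulans no choice 1 and 2. In choice, the call of Ir76a was kept in all 6 (adjusted p = 0.0016 to 0.00731, limma).

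**Figure D5:**
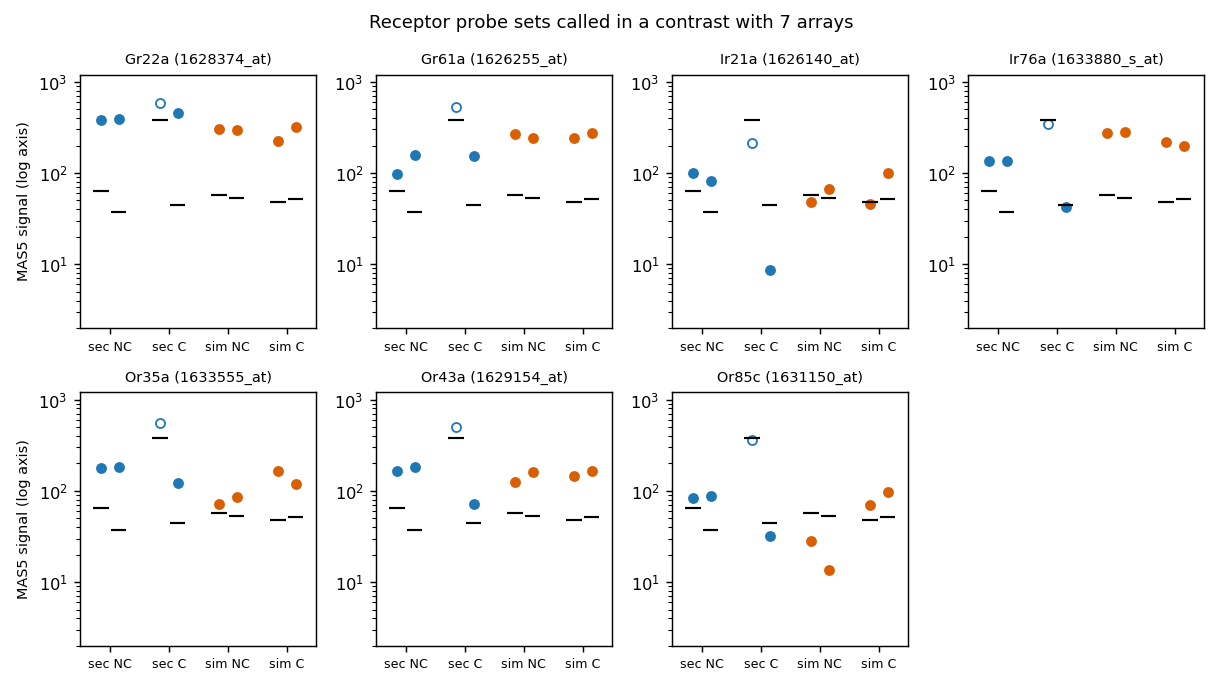
Signal on each array (log axis) of the 7 receptor probe sets called in a contrast with 7 arrays, by species (sec, sechellia, blue; sim, simulans, orange) and treatment (NC, no choice; C, choice); the open point is array 1 of sechellia choice and short bars are background lines. Ir76a and Gr61a lie lower in D. sechellia on all 3 filled points, Gr22a lies higher, and Ir21a and Or43a are low on array 2 of sechellia choice.

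Counting arrays instead of testing gave a similar picture. With 7 arrays, 12 of 91 tested receptors (13.2%) had no overlap between species, against 34.8% of all tested probe sets. Those higher in D. sechellia on every array were Gr22a, Gr28a, Gr58a, Gr59d, Ir68a, Or7a, Or33a and Or42a, 8 against a background of 19.0%. Those lower were Gr61a, Ir67b, Ir76a and Or43b, 4 against a background of 15.8%. With 8 arrays the count was 8, all higher, where the background was 21.9% (11.0% higher and 10.9% lower). As 179 of 185 receptor probe sets read highest on array 1 of sechellia choice, few could be lower with 8 arrays. Or43b, an antennal receptor for fruit esters, shows how small a separated difference can be: it read 227 and 203 on the sechellia no choice arrays, 217 on array 2 and 286 on array 1 of sechellia choice, 286 and 268 on simulans no choice, and 254 and 267 on simulans choice. Its 3 sechellia signals lay below the 4 simulans signals, and its difference was -0.31 ± 0.14 (adjusted p = 0.117, limma).

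Several receptors above the line in at least 1 group had larger species differences that did not pass the test. Toward D. sechellia these were Ir68a (moist sensing) at 1.43 ± 0.65, Gr39a at 1.36 ± 0.64, Gr58a at 1.16 ± 0.54, Gr93b at 1.0 ± 0.35, Gr58b at 0.90 ± 0.55 and Ir94a at 0.81 ± 0.46, with limma adjusted p from 0.0587 for Gr93b upward. Toward D. simulans these were Gr59f at -1.18 ± 0.74, Ir21a at -1.13 ± 0.46, Gr36b at -0.90 ± 0.47 and Ir31a, an antennal subunit, at -0.87 ± 0.47. For Gr58b, Gr36b and Ir21a the no choice arrays did not show the averaged difference, at 0.012, 0.001 and 0.698. In choice, against array 2 of sechellia choice alone, these were 1.789, -1.793 and -2.95. The others listed had the same sign in both treatments. Ir68a read 180.1 and 131 on the sechellia no choice arrays, 163 on array 2 and 805 on array 1 of sechellia choice, 12.3 and 97.1 on simulans no choice, and 81.6 and 122 on simulans choice. Its simulans no choice array 1, at 12.3, lay far below the other arrays. In some of the probe sets named here a whole group lay below the line, so these values are fitted differences. Above the line in both sechellia groups and in neither simulans group were 7 of 185 receptor probe sets (of Gr23a, Gr39a, Gr58a, Gr59d, Ir20a, Ir60d and Or10a), and the reverse held for 1 (Or85d), against 421 and 121 of all 18769 probe sets. Sechellia choice counts here by array 2 alone, an easier condition than a pair, so these counts are not a difference between species.

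Few receptors were called for the choice treatment. With 8 arrays limma called 0 in D. sechellia, in D. simulans and averaged over species, where it called 0.0533%, 0.00761% and 0.0228% of all tested probe sets. At an unadjusted p below the threshold were 10 receptors (11.0%) in D. sechellia, all higher in choice, against 14.2% of all tested probe sets. In D. simulans there were 0, against 1.85% of all, and averaged over species 5 (5.50%), against 5.38% of all. The median difference in D. sechellia was 1.11 over the receptors and 0.19 over all tested probe sets with 8 arrays, and 0.09 and 0.04 with 7, so the receptors' shift was present with array 1 and not without it.

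With 7 arrays, 2 receptors were lower in choice in D. sechellia, Ir76a and Ir21a, where 2.49% of all tested probe sets were called (0.906% lower). Ir76a changed by -1.64 ± 0.27 (adjusted p = 0.021, limma) (a bound of at least 2.999-fold lower), and Ir21a by -3.39 ± 0.71 (adjusted p = 0.0497, limma; at least 2.04-fold lower). Both calls were lost in each of the 6 fits that left out a further array, with adjusted p from 0.0501 to 0.0623 for Ir76a and from 0.0589 to 0.142 for Ir21a (limma). The Ir21a call was further lost with signals raised to the background line, no filter, no intensity trend or the replicate block (adjusted p up to 0.303, limma). Averaged over species, Ir76a was the 1 receptor called, at -1.03 ± 0.18 (adjusted p = 0.034, limma), where 1.46% of all probe sets were called (0.266% lower). That call was also lost in all 6 such fits (adjusted p = 0.0662 to 0.123, limma), and with no filter, no intensity trend or the replicate block (adjusted p up to 0.0923). In the same sechellia comparison, 4 of 4 gut markers and 4 of 7 female body markers were called higher on array 2 of sechellia choice. The summed gut markers read 1573 to 1887 in sechellia no choice, 6398 on that array and 33970 to 40070 in D. simulans. Their part in the receptor values was not tested.

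In D. simulans no receptor was called with 7 arrays, where 0.274% of all tested probe sets were. At an unadjusted p below the threshold were 6 receptors (6.59%), against 14.9% of all tested probe sets. Ir8a, the acid co-receptor, was higher on both choice arrays than on both no choice arrays, at 1.19 ± 0.37 (adjusted p = 0.194, limma). Or85c was likewise above on both choice arrays, at 2.07 ± 0.60 (adjusted p = 0.174, limma), and Ir41a at 1.67 ± 0.61 (adjusted p = 0.255). Or85e lay below on both, at -1.93 ± 0.61 (adjusted p = 0.202, limma), as did Ir64a, at -1.20 ± 0.48 (adjusted p = 0.298). The remaining receptor was Or35a, at 0.85 ± 0.29 (adjusted p = 0.231, limma). Or85c and Ir41a were below the line on both no choice arrays and Or85e on both choice arrays, so their fitted values are not measured differences.

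No receptor passed the test of a choice effect that differs between the species, which does not show that the effects were alike. limma called 0 in the interaction with 8 arrays and 0 with 7, where it called 0.0152% and 2.79% of all tested probe sets. At an unadjusted p below the threshold were 3 receptors (3.30%) with 8 arrays, against 6.84% of all, and 7 (7.69%) with 7 arrays, against 17.2% of all. Without array 2 of sechellia choice, array 1 alone stood for the group, and calls in that fit are not read as receptor results. Among the 7 were Ir21a at -3.65 ± 0.92 (adjusted p = 0.0835), Or85c at -3.49 ± 0.95 (adjusted p = 0.103) and Ir76a at -1.23 ± 0.35 (adjusted p = 0.118, limma). Each is a negative value, a change with choice that was lower in D. sechellia than in D. simulans, and each rests on array 2 of sechellia choice.

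Context came from lists of receptor partners, of ppk, CheA and CheB genes, and of chemosensory transcription factors. Among partners of the receptors, 2 of 9 tested probe sets were called higher in D. sechellia with 7 arrays and with 8, Arr1 and Arr2, arrestins that act in olfactory and visual signalling, where 16.9% of all tested probe sets were called higher with 7 arrays. Arr1 differed by 1.05 ± 0.17 (adjusted p = 0.0017, limma) and Arr2 by 1.44 ± 0.29 (adjusted p = 0.00573, limma) with 7 arrays. The Arr2 difference with 7 arrays was 2.54 ± 0.37 in no choice and 0.33 ± 0.46 in choice. Arr2 read 360.8 and 399.2 on the sechellia no choice arrays and 341.9 on array 2 and 403.1 on array 1 of sechellia choice. In D. simulans it read 41.5 and 102.9 in no choice and 280.4 and 262.1 in choice. Orco, the odorant co-receptor, was above the line on 6 of 7 arrays, reading 56.3 and 59.8 on the sechellia no choice arrays, 59.4 on array 2 and 582 on array 1 of sechellia choice, 68 and 113 on simulans no choice, and 105.4 and 108 on simulans choice. Its 3 sechellia signals lay below the 4 simulans signals, and the difference of -0.72 ± 0.32 did not pass (adjusted p = 0.127, limma). Snmp1, a membrane protein of pheromone neurons, was above the line on all 7.

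The ppk channel subunits and the CheA and CheB genes, a list taken by symbol for contact chemosensation, comprised 42 probe sets. Being on this list does not establish a role in taste. Of the 42, 10 were above the line on all 7 arrays and 26 were tested. Higher in D. sechellia in both fits were 3, ppk16 at 1.76 ± 0.23, ppk18 at 1.25 ± 0.15 and ppk10 at 1.91 ± 0.35 with 7 arrays (adjusted p = 0.000486, 0.0003 and 0.00304, limma), again beside 16.9% of all tested probe sets. A second probe set of ppk18 was not called, at 0.70 ± 0.32 (adjusted p = 0.134, limma). With 7 arrays 1 was lower, ppk23, a subunit in pheromone taste, which read 24.1 and 23.7 on the sechellia no choice arrays, 21.7 on array 2 and 144 on array 1 of sechellia choice, 69.2 and 80.7 on simulans no choice, and 62.5 and 65.5 on simulans choice. All 3 sechellia signals were below the line and all 4 simulans signals above it. None of 4 tested probe sets of the chemosensory transcription factors was called with 7 arrays.

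Tissue markers were read against the same line, above which 53.5% of all probe sets stood on all 7 arrays. Standing above it does not identify a tissue. All 7 female body markers (yolk and eggshell proteins), all 4 gut markers and all 3 flight muscle markers were above the line on all 7 arrays. Of 4 antennal markers, 1 (a10) was above it on all 7, Obp83b was above it on the 4 simulans arrays, and lush, an odorant-binding protein of the antenna, did not exceed 11.0 on any of them. Of 3 eye and head markers, chp was above it on all 7 and trp and inaD on none. Of 6 neuron marker probe sets, 1 (elav) was above it on all 7 and 1 (of brp) on none. Of 7 male markers, 3 were above the line on all 7 arrays although the flies were females; the source of these signals was not tested.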

How the data were processed

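The probe-set signals (intensity, linear scale) came from the deposited value table, and per the submitters' processing notes MAS5 made them; a version, a scaling target and detection calls are not given in the sources used here. Biotin-labelled RNA was hybridised, per the labels. Depth on arrays has no count, so precision is limited by the number of arrays. Gene symbols came from the platform annotation, in which 13646 probe sets have 1 symbol, 402 several and 4721 none. The members and lists were chosen with earlier results of these data known.

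Signals were analysed as log2 in R 4.3.3 with limma 3.58.1 (lmFit on 4 group means, eBayes with an intensity trend), after 183 control probe sets and the dimmest 30% were left out, at geometric mean signal 49.9. Residual degrees of freedom were 4 with 8 arrays and 3 with 7. Tables and figures used Python 3.11.15, pandas 2.3.3 and matplotlib 3.10.9. The script was tested on simulated data. Where a group was below the line on every array, a fold is a bound, computed against the higher of the probe set's own signal and the background line on each array. Named were the 12 members with the highest mean signal over 7 arrays, every called member, the largest species and choice differences among members above the line in a group, and a list of co-receptors, acid, sugar, bitter, carbon dioxide and host-odour receptors. Alternatives were other normalizations, filters, background bounds, no intensity trend, a replicate block and each array left out; those on 7 arrays were chosen after seeing the data. Same-numbered arrays of different groups did not deviate together (r = -0.123 to 0.0523), so the numbers do not pair them. No sequences or positions were used here.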

Additional observations from a re-analysis of the deposited data

Results flagged for a closer look

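A pair of receptor probe sets outside the membership rule stood above the background line on all 7 arrays other than array 1 of sechellia choice, and so carry a signal that no comparison here uses. The probe set shared by Gr64b and Gr64c, sugar receptors of 1 gene cluster, had a lowest signal of 83.4 over the 7 arrays, on simulans no choice array 2. Another probe set of the same pair of genes was above the line on none of the 7. The probe set shared by Ir75d, an antennal ionotropic receptor, and COX6AL2, a gene for a mitochondrial subunit, had a lowest signal of 98.3, on simulans choice array 1. The signal cannot be assigned to either gene of a pair.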

How the results depend on the processing

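Receptors called over the 5 contrasts (averaged species difference, species difference in no choice, species difference in choice, averaged choice effect, choice effect in D. sechellia) were 0 in each with 8 arrays and 3, 4, 3, 1 and 2 without sechellia choice array 1. With 7 arrays, quantile normalization gave 4, 4, 3, 1 and 3, median centring 5, 4, 3, 1 and 3, cyclic loess 4, 4, 3, 1 and 2, and signals raised to the background line 5, 3, 2, 1 and 1. No filter gave 7, 6, 4, 0 and 1, a filter from these 7 arrays 3, 4, 3, 1 and 2, and no intensity trend 4, 4, 4, 0 and 1. The replicate block gave 0 in each with 8 arrays, and the labels do not say whether the numbers pair the arrays. Only the 4 no choice arrays gave 3 calls.

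Leaving out 1 array of the 8, counts ran from 0 to 62, 0 to 4, 0 to 72, 0 to 62 and 0 to 72, and from 0 to 57 for the interaction and 0 to 0 for choice in D. simulans; the highest came without sechellia choice array 2, where array 1 alone stood for its group. Leaving out 1 more of the 7 gave 3 to 5, 2 to 4, 2 to 2, 0 to 0 and 0 to 0. The count above background was 34, with 84 above the median control, 8 above the highest, 22 on all 8 arrays, 134 on at least 1 array and 34 to 40 without 1 array.

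For single receptors, 1612 values stayed on their side of the threshold, of which 220 uncalled ones changed sign, 184 became called in the same direction and 13 with the opposite sign. Or43a in choice reversed from 0.30 to -1.11 with 7 arrays, also raised to the line, with the filter from these arrays or without the trend, and to -1.23 (quantile), -1.27 (median), -1.24 (loess) and -1.23 (replicate block), with -1.11 to 1.71 over the arrays left out. Leaving out 1 array of sechellia choice (array 1, then array 2), Ir21a ran from -2.95 to 1.65 in choice, and Ir76a from -2.28 to 0.71 in choice, -1.03 to 0.47 in the averaged choice effect and -1.64 to 1.35 in the choice effect in D. sechellia. On both of these arrays Ir21a and Ir76a were below the line. Gr36b reversed to -0.90 in the averaged species difference with 7 arrays and no trend. The cause was not tested.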
